A study of Homo sapiens with 6 samples.

Results

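The cytosolic nucleic acid sensors were taken as 10 genes selected by gene name in the FPKM file and joined to the count file by gene identifier: IFIH1, DDX58, DHX58, IFI16, ZBP1, TMEM173, MAVS, TBK1, IRF3 and TREX1. All 10 were found among the 58825 genes measured, and 9 of them were among the 20295 genes with enough counts to be tested. ZBP1 did not pass the filter on low counts. FPKM, a level normalised for transcript length and mapped fragments, was used to compare levels between genes.

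RNA-seq was performed on NCI-H460, an established human line that derives from a large cell carcinoma of the lung, to ask how transcription differs after knockdown of PRMT5, an enzyme that places symmetric methyl marks on arginine residues. The 3 NC-shRNA libraries came from cells infected with lentivirus carrying an shRNA that the labels describe as directed against GFP, and the 3 PRMT5-shRNA libraries came from cells infected with lentivirus carrying an shRNA against PRMT5. RPMI-1640 was the medium of both groups, while the paper's methods list DMEM, another medium, or RPMI-1640 without assigning them to lines. Per the paper, both groups carried their shRNA stably, and its methods state puromycin selection for the knockdown cells. Several PRMT5 hairpins were designed, and which of them was sequenced is not given in the sources used here. The paper calls the replicates biological, while the labels only number them. P-values therefore measure the spread between these libraries. Total estimated counts were 69606034, 70518401 and 62125927 in NC-shRNA replicates 1 to 3 and 53531257, 69077084 and 56507279 in PRMT5-shRNA replicates 1 to 3.

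Cells carry receptors that recognise RNA or DNA in the cytosol, where viral genomes, transposon transcripts or leaked nuclear and mitochondrial DNA can appear. RNA receptors of the RIG-I family signal through the mitochondrial adaptor MAVS, and DNA sensing by cGAS, with IFI16 described as a further DNA sensor, signals through STING, the product of TMEM173. Both routes meet at the kinase TBK1 and the transcription factor IRF3, which drives interferon genes, while the exonuclease TREX1 removes cytosolic DNA and so limits signalling.

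PRMT5, the target of the hairpin (ENSG00000100462, chr14:22920511-22929585, minus strand, positions on GRCh38 from GENCODE release 29), was present at 143, 127 and 128 CPM in NC-shRNA replicates 1 to 3 and at 45.8, 45.6 and 38.3 CPM in PRMT5-shRNA replicates 1 to 3. CPM are counts relative to a library total scaled by the TMM method. Every PRMT5-shRNA library lay below every NC-shRNA library, in the direction of the labels. In bulk RNA, fewer cells that hold a transcript and less of it per cell cannot be told apart. PRMT5 fell by 1.62 on the log2 scale (SE 0.0943, 95% interval -1.84 to -1.40, adjusted p = 0.00630 in the quasi-likelihood test of edgeR, with the Benjamini-Hochberg method over all 20295 genes). The exact two-sided permutation test gave 0.10, the smallest p that 3 against 3 libraries allow. Under 17 of 19 alternatives PRMT5 passed the adjusted threshold. It missed it with a linear model fitted to each gene alone on log2(FPKM + 1), with a log2 fold change of -1.49 (adjusted p = 0.0913). The other miss came with the replicate number as a block, at -1.62 (adjusted p = 0.144, the highest over all 19). The antisense gene PRMT5-AS1 shares exonic bases with PRMT5 on the opposite strand and had 14 to 55 counts per library.

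None of the sensor genes was called in the comparison of PRMT5-shRNA with NC-shRNA. At an adjusted p under 0.05 by edgeR's quasi-likelihood test, 0 of 9 tested genes passed, against 14 of 20295 genes in all (0.0690%). DESeq2 also gave 0 of 9, against 530 of 20295 genes (2.61%), and limma on log2(FPKM + 1) gave 0 of 8, against 13 of 14707 genes (0.0884%). DESeq2 left some of the 20295 genes without an adjusted p. These are counted as not called, so 2.61% is a lower bound for the genes it adjusted. An unadjusted p under 0.05 was reached by 0 of 9, against 2605 of 20295 genes (12.8%). CPM of the groups did not overlap in 0 of 9 in the higher direction, against 2238 genes (11.0%), and in 0 of 9 in the lower direction, against 2165 genes (10.7%). The fitted log2 fold change was positive in 7 and negative in 2 of the 9, with a median of 0.061 against 0.0075 over all genes tested. When library totals alone set the scale, 8 were positive and 1 was negative, since IRF3 moved from -0.026 to 0.024, and the median of all genes was 0.057. The smallest adjusted p among them was 0.587, for MAVS. A p above the threshold does not show that levels did not differ, so the interval of each gene is given with its values.

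Transcript level per length spanned a wide range among the sensor genes. Mean FPKM over the 6 libraries was highest for IFI16 at 14.0, followed by MAVS at 7.94, TBK1 at 6.65 and IRF3 at 4.95. Lower mean FPKM was found for DDX58 at 3.09, IFIH1 at 2.65, DHX58 at 1.45, TREX1 at 0.942 and TMEM173 at 0.477, and ZBP1 was listed at 0. IFI16 stood apart from MAVS, as its lowest library at 12.3 FPKM lay above the highest MAVS library at 11.7 FPKM. The FPKM ranges also did not overlap between IRF3 and DDX58, between IFIH1 and DHX58, and between TMEM173 and ZBP1. Neighbours whose FPKM ranges overlapped were MAVS and TBK1, TBK1 and IRF3, DDX58 and IFIH1, DHX58 and TREX1, and TREX1 and TMEM173. Within single libraries TBK1 always lay above IRF3, whereas the order of the other overlapping pairs differed between libraries. TBK1 and IRF3, which serve both routes, had a higher FPKM than each RNA receptor in every library.

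**Figure D1:**
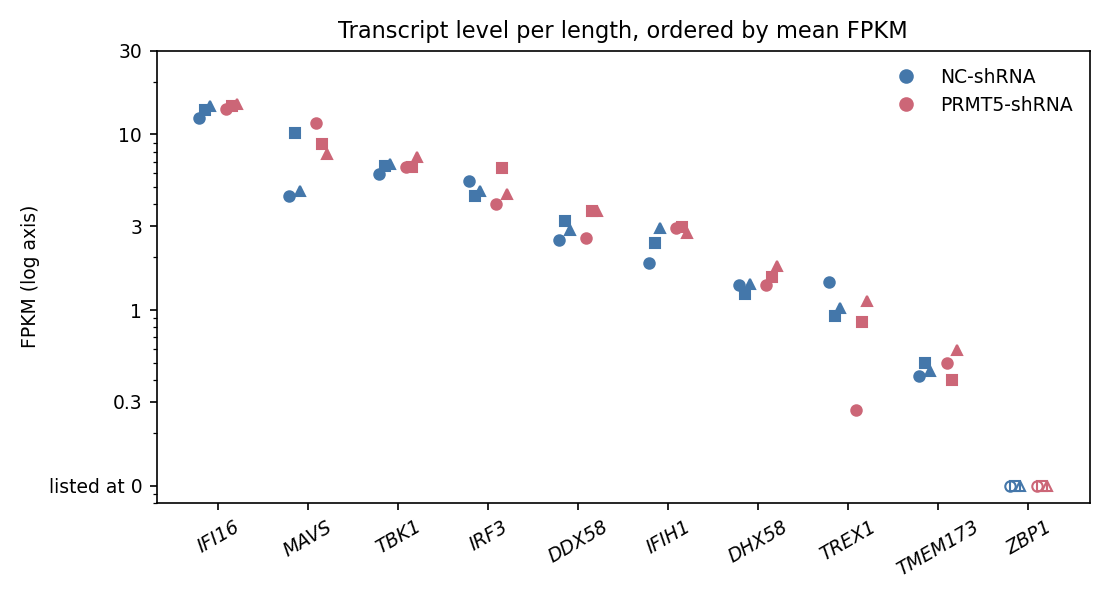
FPKM (log axis) of the 10 sensor genes in each library, ordered by mean FPKM, with colour for the group and circles, squares and triangles for replicates 1, 2 and 3; open symbols at the bottom mark values listed at 0. IFI16 lies highest at a mean of 14.0 FPKM, TMEM173 lies lowest of the genes with reads at 0.477 FPKM, and MAVS and TREX1 show the widest scatter between libraries.

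IFIH1 encodes MDA5, a helicase that binds long double-stranded RNA (ENSG00000115267, chr2:162267079-162318703, minus strand). It was measured at 11.6, 14.8 and 17.5 CPM in NC-shRNA replicates 1 to 3 and at 17.2, 17.7 and 16.1 CPM in PRMT5-shRNA replicates 1 to 3, or 1.86, 2.42 and 2.92 and 2.92, 2.99 and 2.76 FPKM. NC-shRNA replicate 1 was the lowest library and NC-shRNA replicate 3 lay among the PRMT5-shRNA libraries, so the groups overlapped. Mean CPM was 14.6 ± 2.93 in NC-shRNA and 17.0 ± 0.826 in PRMT5-shRNA (SD, n = 3 each), and the fitted log2 difference was 0.21 (SE 0.157, 95% interval -0.16 to 0.59, adjusted p = 0.614, exact permutation p = 0.30). Single control libraries moved this value. It was 0.072 without NC-shRNA replicate 1 and 0.36 without NC-shRNA replicate 3, where the unadjusted p alone was under 0.05 (adjusted p = 0.372, range over 19 alternatives 0.372 to 0.888). In that fit 13.4% of all genes had an unadjusted p under 0.05.

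The RNA receptor genes are known interferon-induced genes, and promoters were therefore read for GAAANNGAAA, the core of the interferon-stimulated response element, on both strands. RefSeq promoters (GRCh38.p14, 250 bases before to 50 bases after the start) matched 6 of the 10 sensor genes by symbol: IFIH1, DDX58 (listed as RIGI), IFI16, MAVS, TBK1 and TREX1. Of these, 1 held the motif, IFIH1, against 1255 of 35116 promoters in all (3.57%). In IFIH1 it was found on the minus strand of the promoter at 159 to 150 and at 153 to 144 bases before the start, which overlap each other, and on the plus strand at 21 to 12 bases before it. The stretches are shown because IFIH1 and DDX58 encode the pair of signalling RNA receptors and differ in exact matches to GAAANNGAAA. The DDX58 stretch does hold GAAACGAAA, with 1 base between the GAAA words in place of the NN searched for. The search allowed no other spacing, so the lack of a match does not show that DDX58 lacks such an element. Each runs 5′ to 3′ on the gene's strand and ends before the outermost annotated start, and capitals mark the overlapping pair of matches. The IFIH1 stretch lies at chr2:162318704-162318934 (minus strand), from 250 to 20 bases before the start, and the DDX58 stretch at chr9:32526325-32526446 (minus strand), from 250 to 129 bases before it.
IFIH1: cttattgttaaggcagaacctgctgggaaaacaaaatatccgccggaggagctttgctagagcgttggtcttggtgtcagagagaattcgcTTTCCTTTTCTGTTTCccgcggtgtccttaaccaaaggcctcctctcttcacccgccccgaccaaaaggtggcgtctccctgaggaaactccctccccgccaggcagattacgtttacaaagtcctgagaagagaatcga
DDX58: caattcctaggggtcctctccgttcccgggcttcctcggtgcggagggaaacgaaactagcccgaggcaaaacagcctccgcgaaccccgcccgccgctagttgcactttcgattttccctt
A match describes these letters and does not show a bound site.

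DDX58 encodes RIG-I, which binds short double-stranded RNA with a 5′ triphosphate (ENSG00000107201, chr9:32455705-32526324, minus strand). Levels were 14.2, 17.8 and 15.5 CPM in NC-shRNA and 13.7, 19.6 and 19.4 CPM in PRMT5-shRNA, in the order of replicates 1 to 3. PRMT5-shRNA replicate 1 was the lowest of the 6 libraries and PRMT5-shRNA replicates 2 and 3 were the highest, so the knockdown libraries lay on both sides of the control libraries. The log2 fold change was 0.15 (SE 0.169, 95% interval -0.25 to 0.55, adjusted p = 0.761, exact permutation p = 0.60). It was 0.30 without PRMT5-shRNA replicate 1, 0.24 without NC-shRNA replicate 2, 0.073 without NC-shRNA replicate 1, 0.068 without PRMT5-shRNA replicate 3 and 0.060 without PRMT5-shRNA replicate 2. DHX58 encodes LGP2, the family member that lacks signalling domains and modulates the others (ENSG00000108771, chr17:42101404-42112733, minus strand). It was measured at 6.49, 5.64 and 6.33 CPM in NC-shRNA and at 6.08, 6.89 and 7.74 CPM in PRMT5-shRNA. PRMT5-shRNA replicates 2 and 3 were above all controls, while PRMT5-shRNA replicate 1 fell among them. Its fitted log2 fold change was 0.17 (SE 0.140, 95% interval -0.17 to 0.50, adjusted p = 0.666, exact permutation p = 0.30). Without PRMT5-shRNA replicate 1 it was 0.25, without NC-shRNA replicate 2 it was 0.11, and without PRMT5-shRNA replicate 3 it was 0.076. All 3 RNA receptor genes had positive fitted log2 fold changes under every one of 19 alternatives, and none passed the adjusted threshold under any of them. The alternatives refit the same libraries, so a constant sign over them is not independent support.

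IFI16 encodes a DNA-binding protein of the nucleus and cytosol (ENSG00000163565, chr1:158999968-159055155, plus strand) and was the most abundant sensor by FPKM. Its CPM were 79.8, 87.5 and 90.1 in NC-shRNA and 84.2, 88.7 and 89.5 in PRMT5-shRNA, with estimated counts of 4598 to 6204 per library. The 6 values lay close together, NC-shRNA replicate 1 being the lowest and NC-shRNA replicate 3 the highest, so every PRMT5-shRNA library fell within the range of the controls. Mean CPM was 85.8 ± 5.36 in NC-shRNA and 87.5 ± 2.82 in PRMT5-shRNA (SD, n = 3 each). Its log2 fold change, 0.027 (SE 0.0682, 95% interval -0.13 to 0.19, adjusted p = 0.901, exact permutation p = 0.70), had the smallest SE of the 9 genes. Without NC-shRNA replicate 1 it was -0.023. On the fold scale the interval ran from 0.911 to 1.14.

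ZBP1 encodes a sensor of left-handed Z-form nucleic acid that triggers cell death through RIPK3 (ENSG00000124256, chr20:57603846-57620576, minus strand). It had 0 counts and 0 FPKM in all 6 libraries. A count of 0 allows up to 3 counts, which is 0.0429 to 0.0550 CPM per library, or 0.172 to 0.220 CPM if each fragment gives 4 counts. These limits cover counting error only. No fold change is given, and any level below the limits was not detectable at this depth. RIPK3 was also at 0 counts in all 6 libraries, whereas its partners MLKL and CASP8 had mean FPKM of 7.75 and 6.87.

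TMEM173 encodes STING, the adaptor of the endoplasmic reticulum that binds the cGAS product cGAMP (ENSG00000184584, chr5:139475534-139482935, minus strand). Levels were low, at 2.55, 2.94 and 2.67 CPM in NC-shRNA and 2.86, 2.36 and 3.30 CPM in PRMT5-shRNA, from 156 to 204 estimated counts per library. The lowest and the highest value both came from PRMT5-shRNA, in replicates 2 and 3, and the controls lay between them. The log2 fold change was 0.061 (SE 0.184, 95% interval -0.37 to 0.50, adjusted p = 0.921, exact permutation p = 0.90). Without single libraries it ran from -0.062, without PRMT5-shRNA replicate 3, to 0.18, without PRMT5-shRNA replicate 2. CGAS, which makes cGAMP and belongs to the DNA sensing list, had a mean FPKM of 2.84 in NC-shRNA and 2.74 in PRMT5-shRNA and was named after its values were seen.

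MAVS, the adaptor of the RNA receptors on mitochondria (ENSG00000088888, chr20:3846799-3876123, plus strand), varied widely between libraries. It was measured at 63.9, 143 and 65.2 CPM in NC-shRNA replicates 1 to 3 and at 157, 119 and 104 CPM in PRMT5-shRNA replicates 1 to 3, from 4053 to 9906 estimated counts. NC-shRNA replicate 2 stood at 2.23 times the lowest control and above PRMT5-shRNA replicates 2 and 3, while the other NC-shRNA libraries lay below all PRMT5-shRNA libraries. Mean CPM was 90.7 ± 45.2 in NC-shRNA and 127 ± 27.5 in PRMT5-shRNA (SD, n = 3 each). The log2 fold change was 0.48 (SE 0.333, adjusted p = 0.587, exact permutation p = 0.30), and its 95% interval of -0.31 to 1.27, or 0.809 to 2.42 on the fold scale, held values on both sides of 0. This value moved most when NC-shRNA replicate 2 was left out. Without that library it was 0.97 (SE 0.179), with an unadjusted p under 0.05, as 10.2% of all genes had in that fit, and an adjusted p of 0.320 (range over 19 alternatives 0.320 to 0.841), and without any other single library it lay between 0.28 and 0.61. The coefficient of variation of CPM was 49.9% in NC-shRNA and 21.7% in PRMT5-shRNA, against medians of 9.82% and 9.05% over 15079 tested genes at 1 CPM or more.

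TBK1, the kinase that phosphorylates IRF3 (ENSG00000183735, chr12:64451880-64502108, plus strand), was measured at 46.7, 50.1 and 51.0 CPM in NC-shRNA and at 47.9, 47.9 and 54.4 CPM in PRMT5-shRNA. PRMT5-shRNA replicate 3 was the highest and NC-shRNA replicate 1 the lowest, with the other 4 libraries close together and the groups overlapping. For TBK1 the fitted difference on the log2 scale was 0.023 (SE 0.0802, 95% interval -0.17 to 0.21, adjusted p = 0.932, exact permutation p = 0.80). It was -0.015 without NC-shRNA replicate 1 and -0.042 without PRMT5-shRNA replicate 3. An antisense gene, AC135279.3, shares exonic bases with TBK1 on the opposite strand but had at most 19 counts in any library.

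IRF3, the factor activated by TBK1 (ENSG00000126456, chr19:49659569-49665875, minus strand), was measured at 25.3, 20.3 and 21.3 CPM in NC-shRNA and at 17.5, 28.2 and 19.99 CPM in PRMT5-shRNA. PRMT5-shRNA held both the lowest library, replicate 1, and the highest, replicate 2, so the controls lay inside the range of the knockdown libraries. The log2 fold change was -0.026 (SE 0.189, 95% interval -0.48 to 0.42, adjusted p = 0.969, exact permutation p = 0.80). Its sign was not stable, as it was 0.024 when library totals alone set the scale, 0.075 without NC-shRNA replicate 1, 0.11 without PRMT5-shRNA replicate 1 and 0.035 without PRMT5-shRNA replicate 3, against -0.25 without PRMT5-shRNA replicate 2. IRF3 shares 734 exonic bases with BCL2L12 on the opposite strand, which had a log2 fold change of -0.079 (SE 0.113, edgeR adjusted p = 0.808). The libraries were made with a stranded kit, and whether the counting used strand is not given in the sources used here, so the IRF3 values are uncertain to that extent.

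TREX1 encodes the main exonuclease of cytosolic DNA (ENSG00000213689, chr3:48465811-48467645, plus strand). It was measured at 2.61, 1.66 and 1.75 CPM in NC-shRNA and at 0.495, 1.46 and 1.89 CPM in PRMT5-shRNA, from 27 to 175 estimated counts per library. PRMT5-shRNA replicate 1 was far below the other libraries and NC-shRNA replicate 1 was the highest, while PRMT5-shRNA replicate 3 lay above NC-shRNA replicates 2 and 3. A log2 fold change of -0.64 (SE 0.470, 95% interval -1.76 to 0.47, adjusted p = 0.612, exact permutation p = 0.30) had the largest SE of the 9 genes. It was -0.26 without PRMT5-shRNA replicate 1 and -1.03 without PRMT5-shRNA replicate 3. All 1515 exonic bases of TREX1 also lie in exons of ATRIP, a checkpoint gene on the same strand, so reads could be assigned to either gene and the TREX1 values are uncertain.

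ATRIP itself had 1396, 1309 and 1164 estimated counts in NC-shRNA and 879, 836 and 908 in PRMT5-shRNA. Its groups did not overlap, with a log2 fold change of -0.41 (SE 0.138, edgeR adjusted p = 0.305). Summing TREX1 with ATRIP, an alternative added after seeing the data, gave 23.4, 20.5 and 20.5 CPM in NC-shRNA and 16.6, 13.4 and 17.7 CPM in PRMT5-shRNA. Every PRMT5-shRNA sum lay below every NC-shRNA sum, and most of each sum came from ATRIP. For the sum the log2 fold change was -0.43 (SE 0.131, 95% interval -0.74 to -0.12), which did not pass after adjustment (edgeR adjusted p = 0.282). No other scaling, filter or left-out library was run on the sum. For TREX1 alone the adjusted p over the other 19 alternatives was 0.491 to 0.855.

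**Figure D2:**
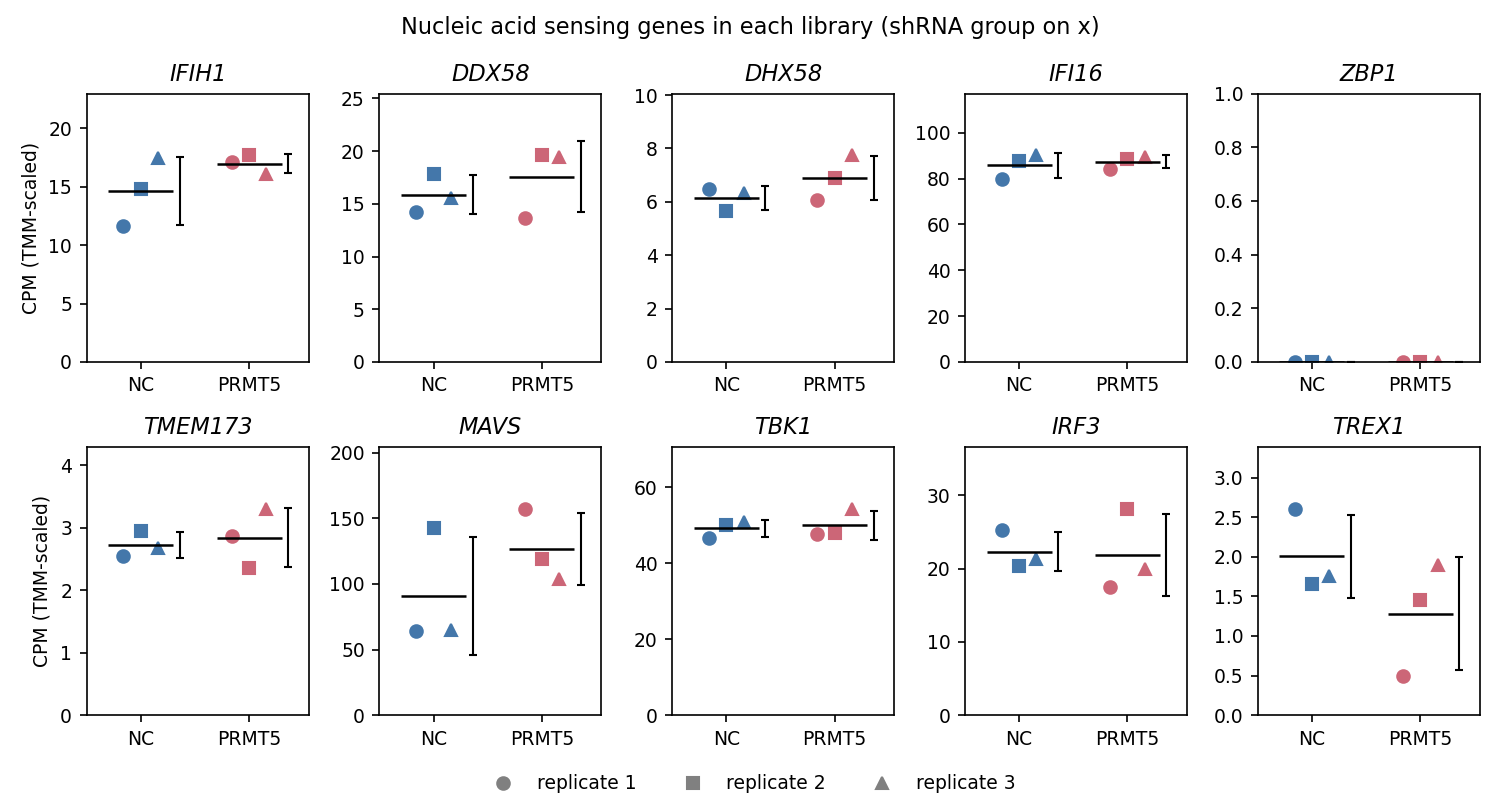
CPM (TMM-scaled) of each sensor gene in the 3 NC-shRNA and 3 PRMT5-shRNA libraries, with symbols for the replicate number, lines at group means and bars of 1 SD beside them, each axis starting at 0. In all 9 genes with reads the groups overlap, MAVS in NC-shRNA replicate 2 stands at 143 CPM above the other controls, and ZBP1 is at 0 throughout.

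The precision of the 9 estimates differed. The 95% interval lay inside a 1.5-fold difference in either direction for 6 of the 9 sensor genes (66.7%), namely DHX58, DDX58, IFI16, TBK1, IRF3 and TMEM173. The same held for 9249 of 20295 genes tested (45.6%) and for 72 of the 99 other pathway genes tested (72.7%). For IFIH1 the upper bound passed 1.5-fold narrowly, for MAVS it was 2.42-fold, and for TREX1 the lower bound was 0.296-fold. The coefficient of variation of CPM was 4.59% in NC-shRNA and 7.54% in PRMT5-shRNA for TBK1, and 6.25% in NC-shRNA and 3.23% in PRMT5-shRNA for IFI16. It was 26.0% in NC-shRNA and 55.9% in PRMT5-shRNA for TREX1, which had only 27 counts in PRMT5-shRNA replicate 1. For IRF3 it was 11.9% in NC-shRNA and 25.4% in PRMT5-shRNA, a difference in spread that was not tested.

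**Figure D3:**
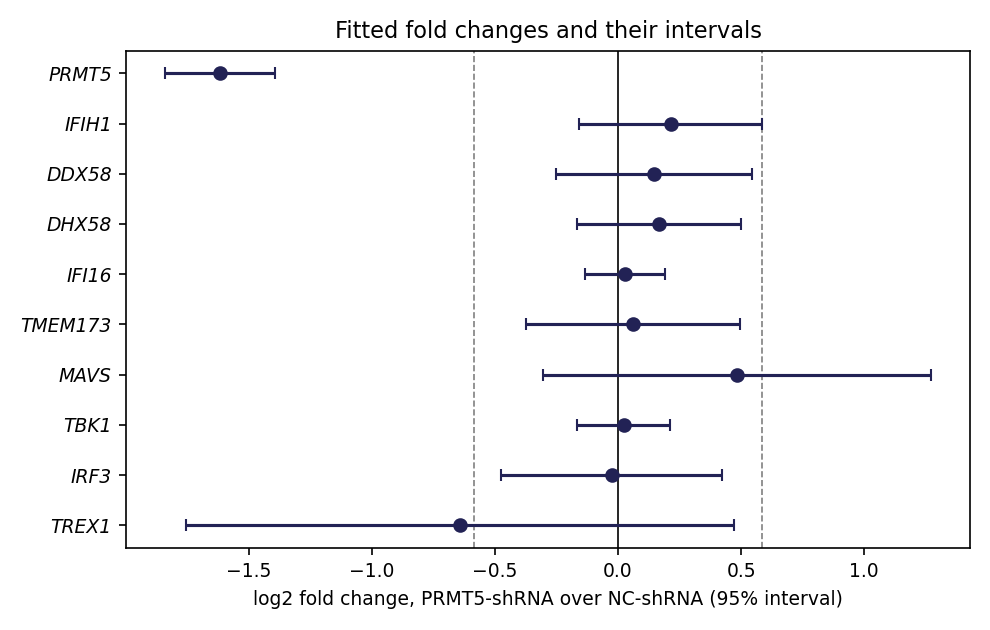
Log2 fold change of PRMT5-shRNA over NC-shRNA (x axis) with its 95% interval for PRMT5 and the 9 tested sensor genes, with dashed lines at a 1.5-fold difference. The PRMT5 interval lies wholly below 0, all 9 sensor intervals include 0, and those of MAVS and TREX1 are the widest.

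For each tested sensor gene, the gene with the most similar pattern over the 6 libraries was found by the root mean square difference of centred log2 CPM, among 15078 candidate genes at a mean of 1 CPM or more. For the RNA receptors these were RNF170 for IFIH1 (0.0309), FAM24B for DDX58 (0.0345) and TNNT1 for DHX58 (0.0266). For IFI16 and the adaptors they were RAB28 for IFI16 (0.0133), CALU for TMEM173 (0.0304) and TMEM106C for MAVS (0.192). The kinase, the factor and the nuclease were matched by ARHGAP29 for TBK1 (0.0138), RPL7P19 for IRF3 (0.0441) and TIMM23B for TREX1 (0.0851). None of these 9 sensors had another sensor as its nearest gene, which says little because few of the 15078 candidates were sensors. MAVS had the most distant match and also the largest variation of its own (root mean square 0.505), so distances are not compared between genes. Likeness over 6 libraries is a description of pattern, with no test.

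The sensor genes were read beside 110 other genes of the pathway, of which 99 were tested. At an adjusted p under 0.05 by edgeR's quasi-likelihood test 0 of 99 passed (smallest adjusted p = 0.163), while 14 had an unadjusted p under 0.05 (14.1%, against 12.8% of all genes), 2 of them higher and 12 lower in PRMT5-shRNA. Over all genes tested that split was 1328 higher and 1277 lower. With library totals alone the pathway split was 6 higher and 6 lower, against 1874 and 815 over all genes. Limma on log2(FPKM + 1), which also changes the test and the filter, gave 8 higher and 4 lower, against 1592 and 675 over all genes. The median log2 fold change of the 99 was -0.033, against 0.061 for the sensors and 0.0075 for all genes. With library totals alone these medians were 0.018, 0.11 and 0.057. Groups did not overlap in 11 of 99 in the higher direction (11.1%, against 11.0% of all genes) and in 16 of 99 in the lower direction (16.2%, against 10.7%).

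DNA sensing cofactors with an unadjusted p under 0.05, 4 of 12 tested where all genes gave 12.8%, were all lower. They were HNRNPA2B1 (-0.24, SE 0.0485), a nuclear ribonucleoprotein, the Ku subunits XRCC5 (-0.18, SE 0.0595) and XRCC6 (-0.17, SE 0.0713), and ENPP1 (-0.44, SE 0.129), an ectoenzyme that degrades cGAMP, all as log2 fold changes. Among RNA sensing and effector genes 5 of 22 passed at that level, 1 higher and 4 lower. These were the helicase DHX9 (-0.27, SE 0.0497), the oligoadenylate synthetases OAS1 (-0.39, SE 0.102) and OAS2 (0.40, SE 0.142), the zinc finger antiviral protein gene ZC3HAV1 (-0.18, SE 0.0628), and IFIT1 (-0.20, SE 0.0819), the last of which was chosen after its value was seen. DESeq2 called 530 of 20295 genes in all (2.61%, a lower bound because some genes had no adjusted p). Of the 99 it called 3: DHX9 (adjusted p = 0.00504), HNRNPA2B1 (adjusted p = 0.0233) and OAS1 (adjusted p = 0.0463). The other 18 alternatives called none of these 3, and their adjusted p reached 0.413, 0.436 and 0.494.

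Of 22 genes between the adaptors and the interferon factors, the step that holds TBK1 and IRF3, 0 had an unadjusted p under 0.05 by edgeR, and 0 passed after adjustment. STING trafficking genes gave 2 of 13, both lower: SEC24C (-0.22, SE 0.0737) and SURF4 (-0.35, SE 0.136), the latter with overlapping groups, again beside 12.8% of all genes. Nucleic acid clearance and limiters, the step of TREX1, gave 2 of 22, PCBP1 (-0.20, SE 0.0722) and TNFAIP3 (0.19, SE 0.0764), a feedback inhibitor of NF-kappa-B. Interferon and chemokine outputs gave 1 of 6 tested, CCL5 (-0.49, SE 0.207), chosen after its value was seen, and partners of ZBP1 gave 0 of 2. These counts depend on the scale: with library totals alone, 12 of 99 had an unadjusted p under 0.05, against 13.2% of all genes, and 8 of them were among the 14. XRCC6, ZC3HAV1, IFIT1, SURF4, PCBP1 and CCL5 no longer had one on that scale, while G3BP1, TBKBP1, RNASET2 and DNASE2, named after their values were seen, did. By role it was then 4 of 12 (1 higher, 3 lower) in DNA sensing, where not all were lower on that scale, 3 of 22 (1 higher, 2 lower) in RNA sensing and 1 of 22 (1 higher, 0 lower) in signalling. In STING trafficking it was 1 of 13 (0 higher, 1 lower), in clearance 3 of 22 (3 higher, 0 lower), and in outputs 0 of 6. IFNB1, the interferon gene downstream of IRF3, was named after its values were seen and had 8, 8 and 19 counts in NC-shRNA and 15, 4 and 0 in PRMT5-shRNA. These counts are near the floor, IFNB1 did not pass the filter on low counts, and no difference was tested in the main fit.

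Per length, many cofactors were far more abundant than the sensors themselves. Mean FPKM was highest for HNRNPA2B1 at 142, XRCC6 at 141 and XRCC5 at 69.3 in DNA sensing and for DHX9 at 64.9, MFN2 at 36.2 and TOMM70 at 25.1 in RNA sensing. In STING trafficking and in clearance the highest mean FPKM belonged to SURF4 at 90.6, TMED2 at 39.9 and SEC24C at 34.1, and to PCBP1 at 129.8, BANF1 at 59.7 and PCBP2 at 55.5. Signalling genes were nearer the sensors, led by FADD at 14.3, TRAF2 at 11.8 and NFKB1 at 10.3 FPKM. The interferon outputs ISG15 at 31.0, IFIT3 at 20.2 and IFIT2 at 13.7 FPKM exceeded the FPKM of every RNA receptor.

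**Figure D4:**
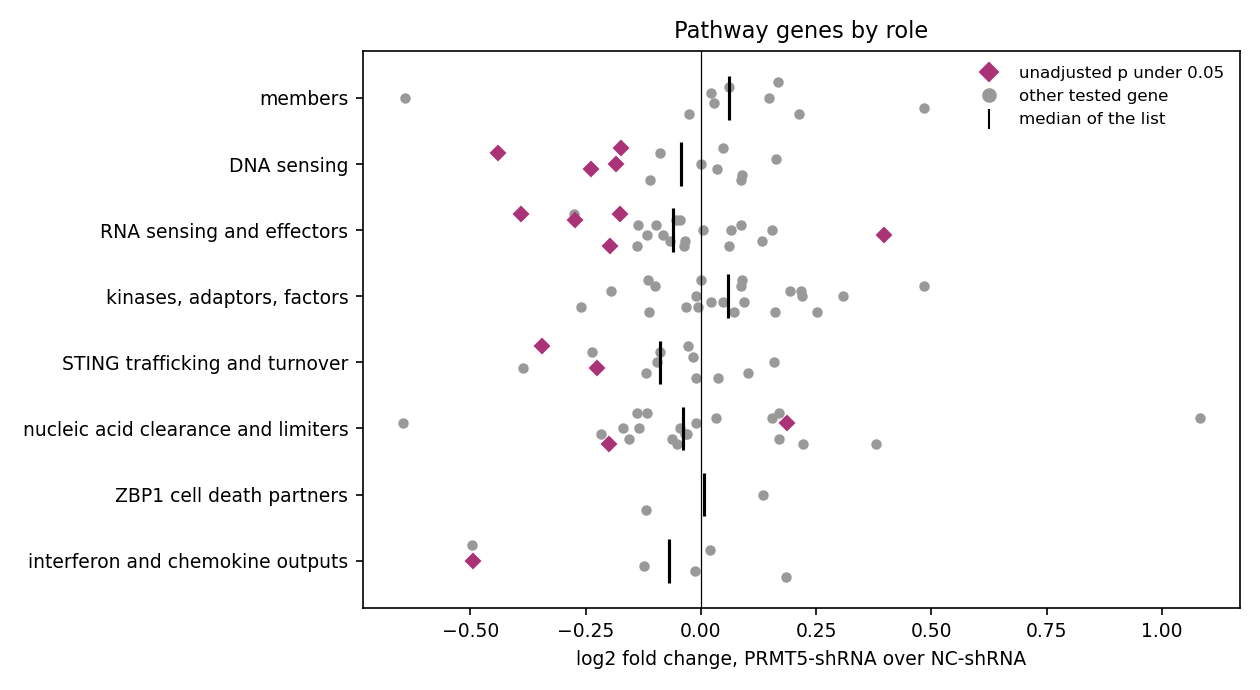
Log2 fold change of PRMT5-shRNA over NC-shRNA (x axis) for the tested sensor genes, shown as members, and for other pathway genes by role, each point 1 gene and each vertical bar the median of its list. Diamonds mark the 14 genes with an unadjusted p under 0.05, of which 12 are lower and 2 higher, and none of the 9 sensor genes is among them.

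Markers of cell identity were read beside the labels. The 4 epithelial genes KRT8, KRT18, KRT19 and EPCAM summed to 1644, 1575 and 1466 CPM in NC-shRNA and 1350.1, 1351 and 1331 CPM in PRMT5-shRNA, with KRT8 the most abundant and 1 of 4 lower at an unadjusted p under 0.05, a level that 1277 of the 20295 genes reached in the lower and 1328 in the higher direction (12.8% in all). The labels call the line an adenocarcinoma, whereas the 3 adenocarcinoma markers NKX2-1, NAPSA and SFTPB summed to only 0.328, 0.0577 and 0.499 CPM in NC-shRNA and 0.531, 0.114 and 0 CPM in PRMT5-shRNA. Blood cell markers summed to 3.40, 3.45 and 2.74 CPM in NC-shRNA and 3.39, 4.02 and 3.41 CPM in PRMT5-shRNA, with CD14 the most abundant and CD3E at 0 in all 6 libraries. Endothelial markers summed to 10.2, 10.9 and 9.74 CPM in NC-shRNA and 16.2, 14.6 and 18.0 CPM in PRMT5-shRNA, with CDH5 the most abundant, and all 3 that were tested of 4 were higher at that level. VWF, the endothelial marker that differed most plainly, had 0 counts in all 3 NC-shRNA libraries and 128, 105 and 122 counts in PRMT5-shRNA. It also passed after adjustment (edgeR adjusted p = 0.0341). PECAM1 had 30, 5 and 8 counts in NC-shRNA and 104, 100 and 109 in PRMT5-shRNA but did not pass (edgeR adjusted p = 0.188). Fibroblast markers summed to 134, 115 and 108 CPM in NC-shRNA and 117, 96.9 and 109.8 CPM in PRMT5-shRNA, with DCN the most abundant, COL1A2 at 0 in all 6 libraries and 1 of the 4 tested of 5 higher at that level, again beside 12.8% of all genes. The part of these markers in the values of the sensors was not tested.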

How the data were processed

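RNA from NCI-H460 cells was sequenced in 6 libraries, grouped by the sample labels. Per the methods and the submitters' processing notes, the authors mapped reads with HISAT2 2.0.4 and assembled expression with StringTie 1.3.4d, with cutadapt 1.9 also listed, on GRCh38 (the methods write GRCm38, a mouse build). The authors deposited gene-level estimated count values, not normalized, and FPKM values scaled for length and depth. Estimated counts were whole numbers already, so rounding changed nothing. Among low counts many genes gathered at 4: 1214 to 1319 genes per library had exactly 4 counts, 462 to 546 had 3 and 283 to 308 had 5. Totals are therefore not read as numbers of fragments.

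Counts were TMM-scaled, filtered with filterByExpr and tested with edgeR 4.0.16 in R 4.3.3 (quasi-likelihood, Benjamini-Hochberg over 20295 genes). SEs came from the F statistic. Exact two-sided permutation tests used log2 CPM. Fits were tested on simulated data. The chi-square per degree of freedom between any pair of libraries was 42.2 or more, so none was a duplicate. Alternatives were other scalings, filters, DESeq2 1.42.0, edgeR's likelihood ratio test, limma 3.58.1 on log2(FPKM + 1) or log2(FPKM + 0.1) above a mean of 0.5, a linear model for single genes, counts divided by 4, a replicate block, each library left out in turn, and a threshold of unadjusted p with a fold change over 1.5.

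Named genes were the 10 sensors, PRMT5, the 3 genes of highest mean FPKM per pathway role, at most 12 pathway genes with an unadjusted p under 0.05, and the nearest gene in pattern to each sensor. Outside that rule, genes that share exons with a sensor or with PRMT5 and genes of the marker lists were also named, and CGAS, IFNB1, IFIT1, CCL5, G3BP1, TBKBP1, RNASET2 and DNASE2 were named after their values were seen. Members and lists were chosen with earlier results of these data known. Positions and overlaps came from GENCODE release 29, in which 58552 of the 58825 identifiers were found.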

Additional observations from a re-analysis of the deposited data

How the results depend on the processing

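Over 19 alternatives the sensors kept 0 genes at an adjusted p under 0.05 (edgeR, DESeq2 and limma). With all 6 libraries in edgeR's quasi-likelihood test, 0 had an unadjusted p under 0.05 with a fold change over 1.5. Leaving out each library in turn gave 0 to 1 sensors at an unadjusted p under 0.05, MAVS without NC-shRNA replicate 2 (where 10.2% of all genes did) and IFIH1 without NC-shRNA replicate 3 (13.4%). Over all genes, 14 calls became 530 with DESeq2 (303 higher, 227 lower), 184 with the likelihood ratio test (119 higher, 65 lower), 2 with the linear model per gene, 775 with unadjusted p and a fold change over 1.5 (513 higher, 262 lower), and 8 to 25 with a library left out. Pathway genes at an unadjusted p under 0.05, 14, became 7 with the likelihood ratio test (8.64% of all genes, in place of 12.8%), 0 with the fold threshold and 6 to 14 with a library left out (9.23% to 13.4% of all genes). PRMT5 had a log2 fold change of -1.49 with the linear model, where it missed the threshold (adjusted p = 0.0913), and ranged from -1.66 to -1.49 over all alternatives (adjusted p up to 0.144). The cause was not tested.

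Signs turned for values near 0. With a library left out, log2 fold changes ran from -0.023 to 0.062 for IFI16, -0.062 to 0.18 for TMEM173, -0.042 to 0.053 for TBK1 and -0.25 to 0.11 for IRF3, with TBK1 at -0.015 without NC-shRNA replicate 1. IRF3 was 0.024 with library totals only, 0.011 with limma on log2(FPKM + 1), with or without a filter, and with the filtered linear model, and 0.0090 with a pseudocount of 0.1. The cause was not tested. Limma with its FPKM filter tested 8 of the sensors, leaving out TMEM173, whose mean FPKM is the lowest of those with reads. By counts TREX1 reached lower, at 27 in PRMT5-shRNA replicate 1. Low levels may limit what could be seen.

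With the replicate number as a block, 0 genes were called in place of 14 (2382 at an unadjusted p under 0.05), the pathway count was 12, the sensor count stayed at 0, and PRMT5 was -1.62 (adjusted p = 0.144). Same-numbered libraries had correlated deviations of 0.0194, -0.0513 and 0.104 for numbers 1 to 3, so the libraries share only a number, and not every library was closest to its own.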
